A study of Mus musculus with 6 samples.

Results

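The 41 genes described here encode the core machinery of macroautophagy and the proteins of the WDR81 group. They were taken by gene symbol from the deposited table of 52550 genes, and all 41 were found in it, 1 row each. They comprise the ULK1 complex (5 genes), the class III PI3K complex with its regulators (6), the PI3P readers with ATG2 and ATG9 (7), the conjugation enzymes and ATG4 proteases (11), the ATG8 proteins (5), ubiquitin and organelle receptors (4) and Wdr81 with Wdr91 and Wdfy3 (3). Wdr81 was included because it was among the genes with the largest decreases in GIT1 CKO cells, so its difference between the groups is a description without a test. The other 40 were listed for their role and not for their values, although results of the same comparison were known at the time.

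In macroautophagy a membrane grows around cytoplasmic cargo, closes into an autophagosome and fuses with lysosomes, where the cargo is degraded. The ULK1 kinase complex starts the process, the lipid kinase PIK3C3 marks the site with phosphatidylinositol 3-phosphate (PI3P), and ubiquitin-like conjugation attaches ATG8 proteins to the membrane, where receptors bind them with their cargo. WDR81 and its partner WDR91 restrain PIK3C3 on early endosomes and so allow these to mature, and WDR81 has also been linked to the clearance of protein aggregates. In macrophages the same machinery serves the removal of microbes and damaged organelles and limits inflammatory signalling.

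The groups were bone marrow-derived macrophages (BMDMs) of C57BL/6 mice. GIT1 CKO mice carried the floxed Git1 gene and Cre under the myeloid Lyz2 promoter. The controls, GIT1 fl/fl mice, had the floxed gene alone, so that an effect of Cre itself cannot be told apart from the loss of GIT1. Marrow cells of both groups were grown for 7 days in 25 ng/mL of M-CSF, and all BMDMs then received 100 ng/mL of LPS. An untreated arm was not analysed here, and neither the duration of LPS nor the age and sex of the marrow donors is given in the sources used here. For each group the mRNA of 3 samples was sequenced, and the study calls these biological replicates. The comparison asks how the loss of GIT1 in macrophages changes their transcriptome under LPS.

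GIT1 CKO libraries held 81131281 to 157485640 counts and GIT1 fl/fl libraries 61895190 to 68083745. Git1 itself was at 72.8 to 74.5 CPM in GIT1 CKO against 71.9 to 103.4 CPM in the controls, or -0.22 as a log2 fold change (adjusted p = 0.447, edgeR). CPM scale the counts of a gene by the TMM-adjusted total of its library. The floxed exons are not named in the sources used here, and reads of the remaining exons enter this value, so it is no check of the labels. All 10 macrophage markers had counts in every library, but their sum was lower in GIT1 CKO, at 30200 to 32080 CPM against 47130 to 54940 CPM in the controls. Most of it was Lyz2, the gene whose promoter drives Cre in GIT1 CKO, which had a ratio of GIT1 CKO to GIT1 fl/fl of 0.455 (adjusted p = 0.0153, edgeR). EdgeR called 0 of the other 9 (at an unadjusted p under 0.05, 2 were lower and 2 higher, and DESeq2 called Fcgr1), with Csf1r (ratio 0.821) and Mertk (0.827) also below all controls and Adgre1 (1.40) and Fcgr1 (1.45) above them. All 8 neutrophil markers stayed under 1 CPM, and 7 endothelial markers summed to 23.2 to 24.7 CPM in GIT1 CKO against 13.0 to 13.9 CPM in the controls, with Pecam1, which macrophages also express, as their main part. The lists for T or NK cells (27.1 to 31.7 against 19.7 to 22.5 CPM, mainly Cd4, with Cd3e at or near 0) and B cells (18.0 to 19.4 against 13.0 to 15.6 CPM, 4 of 5 markers under 1 CPM) were also higher in GIT1 CKO, as was that for mast cells or basophils (0.744 to 1.37 against 0.421 to 0.61 CPM). The sum for fibroblasts was narrowly higher in GIT1 CKO, at 31.84 to 36.36 against 26.37 to 31.36 CPM. Those for dendritic cells, erythroid cells and osteoclasts overlapped between the groups. Of the markers tested in these and the fibroblast list, Dcstamp (13.6 against 6.49 CPM on average), Dcn (1.26 against 0.483) and Col3a1 (4.46 against 3.04) were above all controls. Acp5 (14.7 against 18.9 CPM) and Siglech (0.315 against 1.03) were below them. EdgeR called none of these markers, and DESeq2 called Dcstamp, Dcn and Siglech. In the endothelial list Pecam1 was called by edgeR (ratio 2.15, adjusted p = 0.0162) and by DESeq2. Cd4 (ratio 1.39) was above all controls and was called by DESeq2 (adjusted p = 0.018) but not by edgeR (adjusted p = 0.129). Cd79b (ratio 1.33), Emcn (2.28) and Kit (2.11) were also above all controls, and neither method called them. The part of these markers in the results was not tested. Xist was at 1051 to 1111 CPM in GIT1 CKO against 226.2 to 606.8 CPM in the controls, and the 4 Y-linked genes examined were near 0 in GIT1 CKO only. Each control library thus held Xist together with Y-linked transcripts (Kdm5d at 12.5 to 19.3 CPM), and whether it mixed cells of donors of both sexes was not tested. Genotype and donor sex therefore cannot be told apart in any result below. Over the 41 genes, the level in GIT1 fl/fl replicate 2 relative to the other controls followed GC content, and the part of this library in the results is given with them.

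Expression of all 41 genes was detected well above the limit for testing. Each passed the filter on low counts (a minimum of 10 counts in enough libraries), the lowest count of any of them in a library was 373, and their mean CPM over the 6 libraries, not scaled by gene length, were 8.66 to 506.6. Among them Wdr81 had the largest difference between the groups, with a ratio of GIT1 CKO to GIT1 fl/fl of 0.406, and the other 40 had ratios between 0.678 (Ulk1) and 1.28 (Tax1bp1). In all, 31 of the 41 (30 of the 40 other than Wdr81) had a log2 fold change below 0, where 49.1% of the 16287 genes tested had one, 10 had one above 0, where 50.9% did, and the median was -0.19 against 0.0085 over all genes tested. These are bulk samples, in which a lower level per cell and fewer cells with the transcript cannot be told apart.

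Because Wdr81 was chosen for its fall, the following counts are of the other 40 genes, each set beside the share over all genes tested. With p-values of edgeR's quasi-likelihood test adjusted over all genes tested and a threshold of 0.05, 0 of the 40 were called lower (0.27% of all genes tested) and 0 higher (0.485%). At an unadjusted p under 0.05, 14 were lower and 0 were higher, beside 8.45% lower and 9.06% higher of all genes tested. DESeq2 called 6 of the 40 lower and 0 higher, beside 2.99% and 4.4% of the genes it tested, and limma-voom called 0 of them, beside 0.319% lower and 0.577% higher. All GIT1 CKO libraries lay below all GIT1 fl/fl libraries in 19 of the 40 genes (15.1% of all genes tested) and above them in 1, Tax1bp1 (13.6% of all genes tested). Leaving out in turn replicates 1, 2 and 3 of GIT1 CKO and then of GIT1 fl/fl, the former count was 21, 20, 20, 23, 22 and 21, beside 17.7, 17.7, 20, 25.4, 21 and 17.8% of all genes. The latter count was 7 without GIT1 fl/fl replicate 1, beside 27.5% of all genes, and 1 without any other library. Without GIT1 fl/fl replicate 1 edgeR called 5 of the 40 lower (1.79% of all genes) and 0 higher (4.99%), without GIT1 fl/fl replicate 2 it called 2 lower (0.821%) and 0 higher (1.51%), and with each library's GC trend removed it called 5 lower (2.27%) and 0 higher (2.69%). Without any 1 GIT1 CKO library, or without GIT1 fl/fl replicate 3, it called 0 of the 40. At the study's own threshold, more than a 1.5-fold difference at an unadjusted p under 0.05, 0 of the 40 were lower (2.14% of all genes tested) and 0 were higher (6.48%), and without GIT1 fl/fl replicate 1 these counts were 4 and 2. Because results of this comparison were known when the genes were listed, these shares are given side by side and nothing is read from them.

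**Figure D1:**
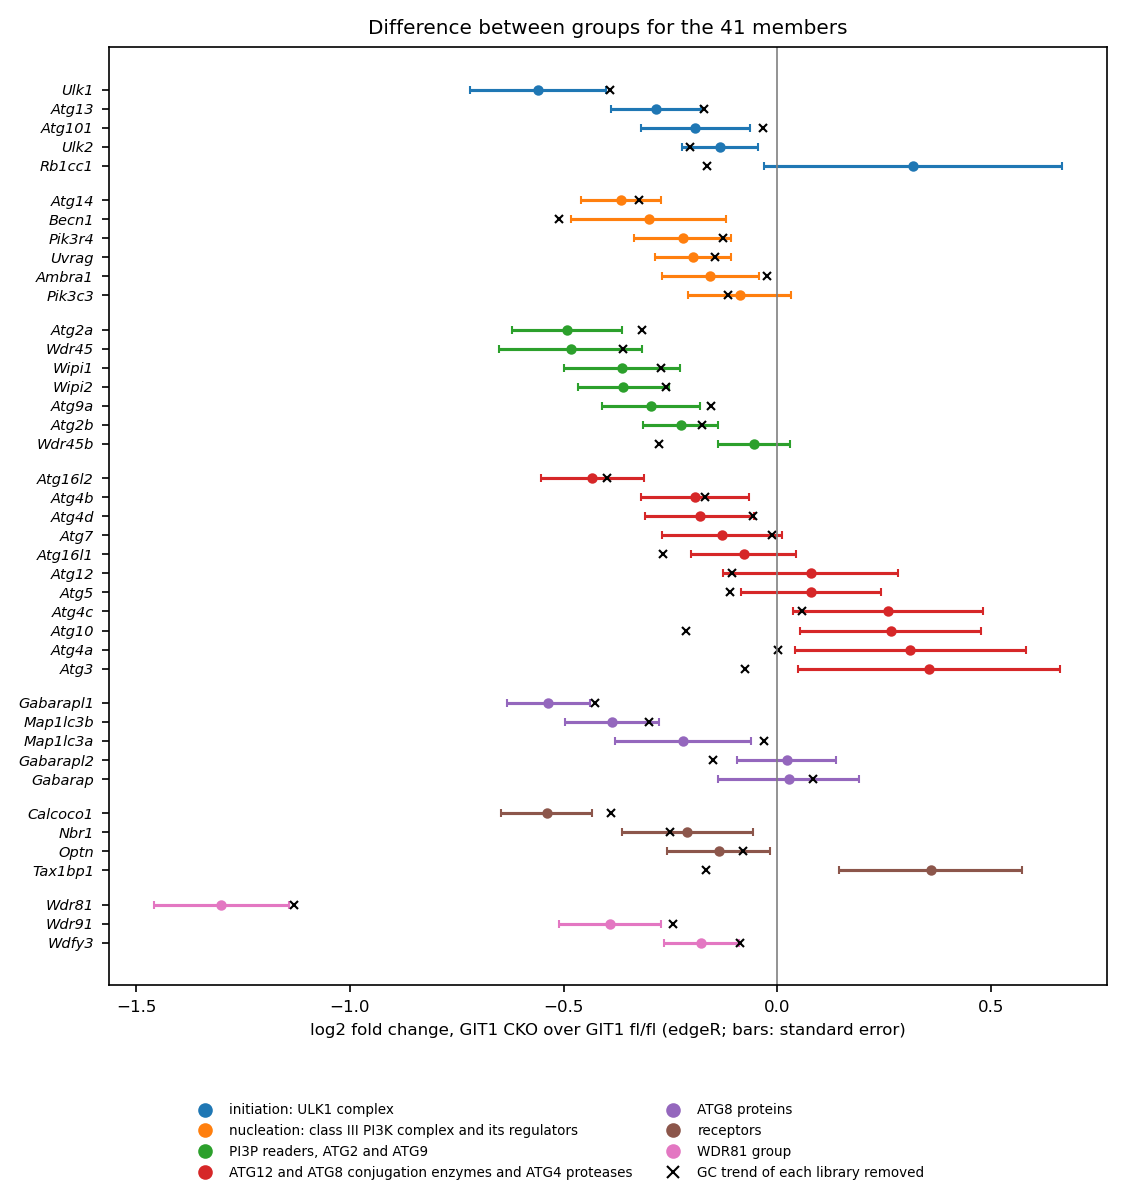
Log2 fold change (GIT1 CKO over GIT1 fl/fl, x axis) of the 41 genes, grouped and coloured by role, with points and bars for the edgeR estimate and its standard error and crosses for the estimate with each library's GC trend removed. Wdr81 lies at -1.30 and at -1.13 with the trend removed, the other points lie between -0.56 and 0.36, and most points right of 0 have their cross left of it.

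Wdr81 encodes a large protein with a BEACH domain and WD40 repeats (ENSMUSG00000045374.18, GRCm38 chromosome 11, 75440944 to 75454717 on the minus strand). Its level was 69.2, 69.4 and 55.9 CPM in GIT1 CKO replicates 1, 2 and 3 and 138.6, 190.7 and 150.2 CPM in replicates 1, 2 and 3 of the controls. The groups were far apart, with the highest GIT1 CKO library below the lowest GIT1 fl/fl library by more than the range within GIT1 CKO, and GIT1 fl/fl replicate 2 was the highest of all. The mean was 64.9 ± 7.73 CPM in GIT1 CKO against 159.8 ± 27.3 CPM in control BMDMs (SD, n = 3 each), or -1.30 on the log2 scale with a standard error of 0.158. Leaving out any 1 library gave log2 fold changes from -1.13 (without GIT1 fl/fl replicate 2) to -1.40 (without GIT1 fl/fl replicate 1). Per kilobase of exon the level of Wdr81 was 22.7 ± 3.88 CPM in GIT1 fl/fl, the 9th highest of the 41, and 9.22 ± 1.10 CPM in GIT1 CKO, the 25th highest. No other gene model of the table overlaps that of Wdr81. Git1 lies 2.04 Mb away on the same chromosome.

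Its partner Wdr91, which binds RAB7 on endosomes, was lower by a smaller margin. Wdr91 was at 90.05, 90.9 and 85.5 CPM in GIT1 CKO against 102.5, 133.9 and 113.1 CPM in the controls, so that the groups did not overlap. The log2 fold change of Wdr91 was -0.39 (standard error 0.12, adjusted p = 0.192, edgeR), and -0.24 with an adjusted p of 0.0478 once the GC trend was removed. Wdfy3, which encodes ALFY, another BEACH protein that brings aggregates to autophagosomes, was at 426.5 to 455.3 CPM in GIT1 CKO against 464.2 to 528.5 CPM in the controls. It also had the groups apart, but the log2 fold change was only -0.18 (standard error of 0.0877, adjusted p = 0.341, edgeR). Per kilobase of exon Wdfy3 was the 3rd highest of the 41 genes in both groups, at 28.6 ± 0.969 CPM in GIT1 CKO against 32.3 ± 2.096 CPM in control BMDMs.

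**Figure D2:**
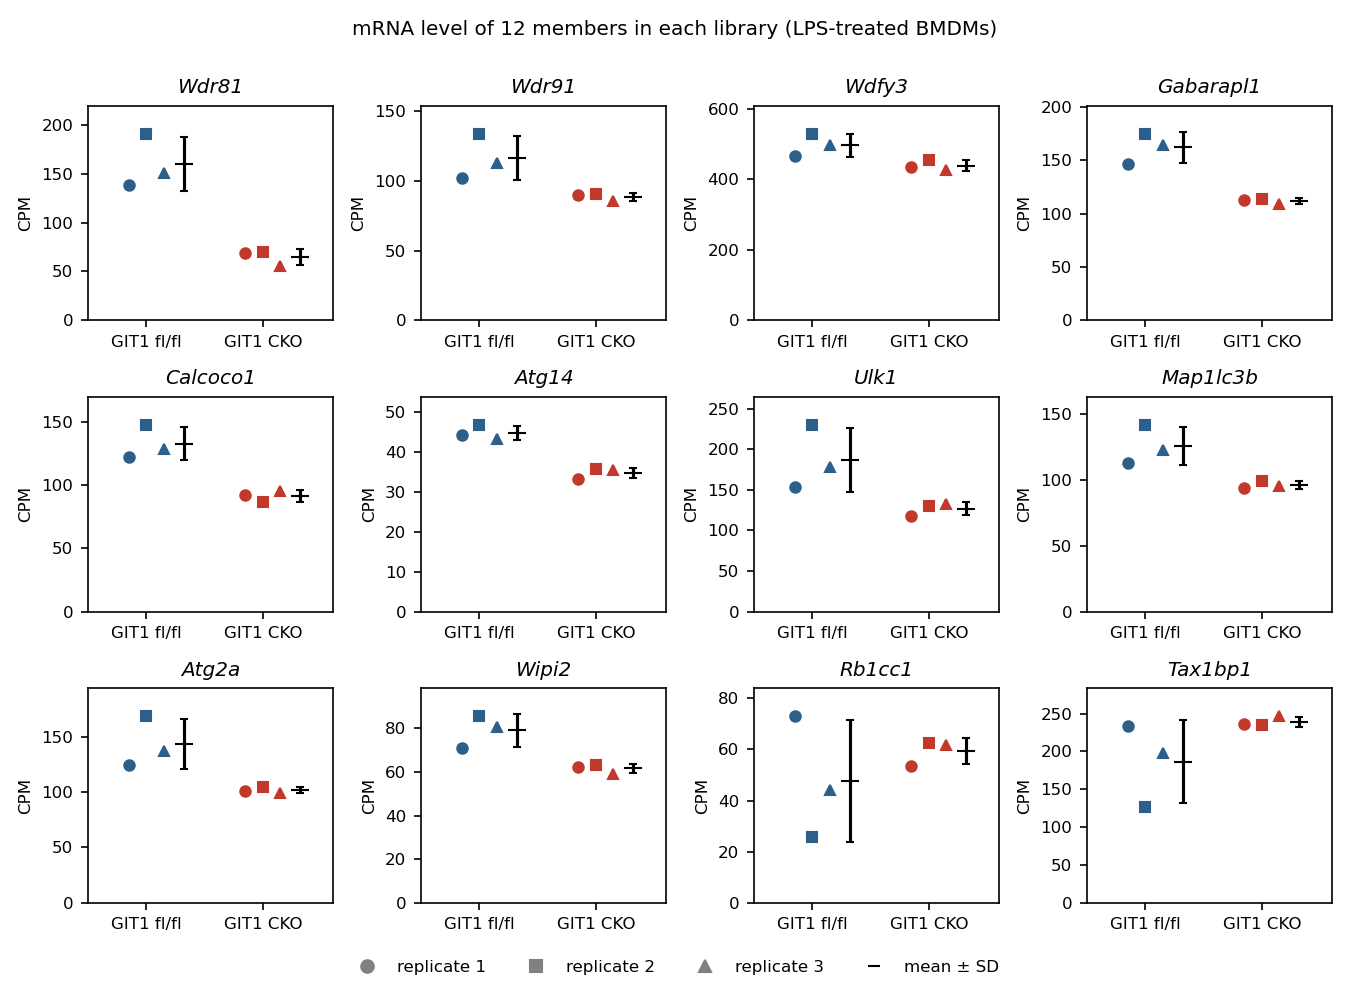
CPM (y axes, from 0) of 12 of the genes in each library, with the replicate number as the symbol and the mean ± SD as the bar beside each group. In 10 panels every GIT1 CKO library lies below every GIT1 fl/fl library, while in the panels of Rb1cc1 and Tax1bp1 the square of GIT1 fl/fl replicate 2 is the lowest point.

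The promoters of the genes with the smallest p-values of the 41 (Wdr81, Gabarapl1, Calcoco1 and Atg14) were chosen after their values were seen, and are shown because all 4 genes were below 0 and because many autophagy and lysosome genes are known targets of TFEB and related factors, which bind the E-box CACGTG. Each sequence runs from 250 bases before to 50 bases after the start of the gene in RefSeq (GRCm38.p6), 5′ to 3′ on the strand of the gene, and capitals mark each CACGTG. They lie at chr11:75454668-75454967 (minus strand) for Wdr81, chr6:129532942-129533241 (plus) for Gabarapl1, chr15:102722129-102722428 (minus) for Calcoco1 and chr14:47568385-47568684 (minus) for Atg14.
Wdr81: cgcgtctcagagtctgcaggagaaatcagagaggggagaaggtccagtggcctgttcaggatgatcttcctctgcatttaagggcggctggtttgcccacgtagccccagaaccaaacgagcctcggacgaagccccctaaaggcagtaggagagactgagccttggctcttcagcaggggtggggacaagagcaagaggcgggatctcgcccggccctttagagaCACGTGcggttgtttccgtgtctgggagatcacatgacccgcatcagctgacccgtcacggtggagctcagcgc
Gabarapl1: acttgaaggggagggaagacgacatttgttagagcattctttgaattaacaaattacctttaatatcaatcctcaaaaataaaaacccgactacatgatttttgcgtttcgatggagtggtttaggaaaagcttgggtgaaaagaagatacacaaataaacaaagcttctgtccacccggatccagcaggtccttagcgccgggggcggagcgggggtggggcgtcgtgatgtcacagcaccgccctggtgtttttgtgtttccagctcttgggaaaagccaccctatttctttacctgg
Calcoco1: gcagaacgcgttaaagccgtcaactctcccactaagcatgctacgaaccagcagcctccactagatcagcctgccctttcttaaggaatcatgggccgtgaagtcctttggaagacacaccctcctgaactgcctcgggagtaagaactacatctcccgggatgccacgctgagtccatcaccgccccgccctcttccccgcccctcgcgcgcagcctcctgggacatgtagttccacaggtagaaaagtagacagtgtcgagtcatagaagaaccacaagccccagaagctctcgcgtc
Atg14: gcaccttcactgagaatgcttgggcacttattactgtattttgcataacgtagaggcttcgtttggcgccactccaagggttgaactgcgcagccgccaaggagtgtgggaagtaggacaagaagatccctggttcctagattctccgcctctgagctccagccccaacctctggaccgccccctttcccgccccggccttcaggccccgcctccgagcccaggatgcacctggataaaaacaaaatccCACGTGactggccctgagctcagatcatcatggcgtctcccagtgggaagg
The E-box of Wdr81 begins 24 bases before the start and that of Atg14 begins 1 base before it, whereas the windows of Gabarapl1 and Calcoco1 hold none. CACGTG reads the same on both strands, and no other motif was searched. A promoter was matched for 33 of the 41 genes, and 5 of these hold CACGTG (Atg3, Atg5, Atg7, Atg14 and Wdr81), beside 8.09% of the 27025 genes with a promoter. Before removal of the GC trend these 5 genes lay on either side of 0, as Atg3 and Atg5 had log2 fold changes of 0.36 and 0.08. With the trend removed they had -0.07 (Atg3), -0.11 (Atg5), -0.01 (Atg7), -0.32 (Atg14) and -1.13 (Wdr81), where 38 of the 41 genes were below 0. A relation of the motif to the differences was not tested, and a match of letters says nothing about binding in these cells.

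In the ULK1 complex, 4 of 5 genes were below 0, 3 had the groups apart, and edgeR called 0 (at an unadjusted p under 0.05, 2 were lower and 0 higher, and DESeq2 called 1). Of all genes tested, 49.1% were below 0, 15.1% had the groups apart with GIT1 CKO lower, 8.45% were lower at an unadjusted p under 0.05 and 2.99% were called lower by DESeq2, and these shares stand beside the counts of every role below. Ulk1, the kinase that starts autophagosome formation, was at 118.2, 129.6 and 132.8 CPM in GIT1 CKO against 153.2, 229.9 and 178.1 CPM in the controls. The groups did not overlap, and the value of GIT1 fl/fl replicate 2 stood well above the other controls. For Ulk1 the log2 fold change was -0.56 (standard error 0.159, adjusted p = 0.175, edgeR), and with the GC trend removed it was -0.39 with an adjusted p of 0.0337. Its paralog Ulk2 was at 146.0 to 159.6 CPM in GIT1 CKO against 163.6 to 179.2 CPM in the controls, a log2 fold change of -0.13 (adjusted p = 0.452). Atg13, the adaptor that joins the kinase to its scaffold, was at 53.7 to 56.4 CPM in GIT1 CKO against 62.3 to 74.0 CPM in the controls (log2 fold change -0.28, adjusted p = 0.246). Atg101, which stabilizes ATG13, overlapped between the groups (log2 fold change -0.19, adjusted p = 0.451). The scaffold gene Rb1cc1, which encodes FIP200, stood alone above 0. Rb1cc1 was at 53.4, 62.5 and 61.9 CPM in GIT1 CKO against 73.0, 25.9 and 43.9 CPM in the controls. The controls thus spanned both sides of the GIT1 CKO values, and the log2 fold change of 0.32 (its standard error was 0.348, adjusted p = 0.641, edgeR) became -0.16 with the GC trend removed. Rb1cc1 has the lowest GC content of the 41 genes, 39.12%.

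All 6 genes of the class III PI3K complex and its regulators were below 0, with a median log2 fold change of -0.21, and 4 had the groups apart, beside 49.1% and 15.1% of all genes tested. EdgeR called 0 of them (at an unadjusted p under 0.05, 1 was lower and 0 higher, and DESeq2 called 1). Atg14, the subunit that directs the kinase to autophagosome formation, was at 33.1, 35.5 and 35.3 CPM in GIT1 CKO against 44.2, 46.6 and 43.1 CPM in the controls. Both groups were tight, and they lay apart by more than either range. For Atg14 the log2 fold change was -0.37 (standard error 0.0933, adjusted p = 0.154, edgeR; adjusted p = 0.0173, DESeq2). Uvrag, the subunit that takes the place of ATG14 in the endosomal complex, was at 105.7 to 113.0 CPM in GIT1 CKO against 118.2 to 131.8 CPM in the controls (log2 fold change -0.20, adjusted p = 0.304). Pik3r4, which encodes the regulatory subunit VPS15, and Ambra1, an activator of Beclin 1, were also lower in every GIT1 CKO library than in any control. Their log2 fold changes were -0.22 and -0.16 (adjusted p = 0.357 and 0.482, edgeR), and -0.13 and -0.02 with the GC trend removed. For Ambra1 the margin was very narrow, with 59.27 CPM in the highest GIT1 CKO library and 59.42 CPM in the lowest control. The catalytic subunit gene Pik3c3, which encodes VPS34, overlapped between the groups at 52.8 to 55.4 and 49.7 to 64.5 CPM (log2 fold change -0.09, adjusted p = 0.709). Becn1, the gene of Beclin 1, was at 47.0, 64.4 and 46.6 CPM in GIT1 CKO against 53.1, 70.2 and 71.4 CPM in the controls. It varied within both groups, which overlapped, and its log2 fold change was -0.30 (standard error 0.181, adjusted p = 0.414, edgeR). The model of Becn1 shares 43.93% of its exon length with Cntd1 on the opposite strand, and the sources used here do not say whether reads were counted by strand.

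The PI3P readers, ATG2 and ATG9 were mostly separate between the groups. All 7 genes were below 0 (median log2 fold change -0.36), 6 had every GIT1 CKO library below every GIT1 fl/fl library (15.1% of all genes tested), and the same count of 6 were lower at an unadjusted p under 0.05 (8.45%). EdgeR nevertheless called 0 after adjustment, and DESeq2 called 1. Atg2a, which encodes a lipid transfer protein that feeds the growing membrane, was at 101.3, 104.6 and 99.5 CPM in GIT1 CKO against 124.0, 168.4 and 137.4 CPM in the controls. The GIT1 CKO libraries were close together and all under the lowest control. For Atg2a the log2 fold change was -0.49 (standard error 0.129, adjusted p = 0.157, edgeR; adjusted p = 0.0365, DESeq2). Its paralog Atg2b differed less but with little spread, at 36.8 to 38.1 CPM in GIT1 CKO against 42.7 to 44.4 CPM in the controls (log2 fold change -0.23, adjusted p = 0.259). Wipi2, the PI3P reader that recruits ATG16L1, was at 62.4, 63.2 and 59.2 CPM in GIT1 CKO against 70.9, 85.6 and 80.8 CPM in the controls (log2 fold change -0.36, adjusted p = 0.183). Wipi1, its closest relative, had a log2 fold change of -0.36 as well, with 22.4 to 27.4 CPM in GIT1 CKO against 28.6 to 35.8 CPM in the controls (adjusted p = 0.248). Of the other PI3P readers, the X-linked Wdr45 (WIPI4) had a log2 difference of -0.48 (adjusted p = 0.224) with the groups narrowly apart, at 18.5 to 26.2 and 27.2 to 35.7 CPM. Wdr45b (WIPI3) was at nearly equal levels, 83.6 to 85.8 CPM in GIT1 CKO against 84.4 to 89.96 CPM in the controls (log2 fold change -0.06, standard error 0.0843). Atg9a, the lipid scramblase of the vesicles that seed the membrane, was at 56.7 to 62.5 CPM in GIT1 CKO against 67.2 to 81.6 CPM in the controls (log2 fold change -0.30, adjusted p = 0.261). Models of Wdr45 and Atg9a share 24.71% and 31.79% of their exon length with another model on the same strand, which held at most 20 and 160 counts. Apart from these and Becn1, the overlaps above 4% of the exon length were on the opposite strand, in Uvrag (17.59%, with a model of at most 88 counts), Atg4d and Gabarapl1.

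The enzymes of ubiquitin-like conjugation and the ATG4 proteases, 11 genes, were spread around 0 with a median log2 fold change of 0.08. Of these, 5 were below 0 and 6 above, 10 overlapped between the groups, and edgeR called 0 (at an unadjusted p under 0.05, 1 was lower and 0 higher, and DESeq2 called 1). The exception was Atg16l2, a paralog of Atg16l1 that was the least expressed of the 41 genes per kilobase of exon (1.29 ± 0.0603 CPM in GIT1 CKO against 1.74 ± 0.172 CPM in control BMDMs, SD, n = 3 each). Atg16l2 was at 11.1, 10.4 and 11.3 CPM in GIT1 CKO against 16.4, 14.3 and 13.6 CPM in the controls. The groups lay apart, and the log2 fold change was -0.43 (standard error of 0.121, adjusted p = 0.171, edgeR; adjusted p = 0.036, DESeq2). Atg16l1 itself, the subunit that places the conjugation complex on the membrane, had a log2 fold change of -0.08 and turned to 0.03 without GIT1 fl/fl replicate 2. Atg7, the activating enzyme of both conjugation systems, likewise had -0.13 and 0.03 without that library.
Atg3, the enzyme that hands ATG8 proteins to the lipid, was at 73.4, 73.7 and 75.7 CPM in GIT1 CKO against 82.7, 32.8 and 58.7 CPM in the controls. The GIT1 CKO libraries were almost equal, and the controls ranged from below to above them. The log2 fold change of Atg3 was 0.36 (standard error 0.306, adjusted p = 0.552, edgeR) and -0.07 with the GC trend removed. Atg10, which attaches ATG12 to ATG5, had 0.26 and, with the trend removed, -0.21. Atg5 and Atg12, the pair it joins, had 0.08 each and -0.11 each with the trend removed, and Atg12 had -0.10 without GIT1 fl/fl replicate 2. The ATG4 proteases, which trim ATG8 proteins before and after their use, split by gene. Atg4b and Atg4d had log2 fold changes of -0.19 and -0.18, while Atg4c and the X-linked Atg4a had 0.26 and 0.31 (adjusted p = 0.443, 0.472, 0.55 and 0.556 in that order, edgeR). The model of Atg4d, at 915 to 2190 counts, shares 19.34% of its exon length with Kri1 on the opposite strand, which held 1244 to 3532 counts. With the GC trend removed the last pair came to 0.06 and 0.0024. In 6 of 6 genes above 0 the lowest library of the controls was GIT1 fl/fl replicate 2.

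Of the ATG8 proteins, which decorate the autophagosome membrane, 3 of 5 were below 0, 2 had the groups apart and edgeR called 0 (at an unadjusted p under 0.05, 2 were lower and 0 higher, and DESeq2 called 1). Gabarapl1 was at 112.9, 113.4 and 108.8 CPM in GIT1 CKO against 146.8, 174.8 and 164.4 CPM in the controls. Each GIT1 CKO library was well below the lowest control. The means were 111.7 ± 2.54 and 162.0 ± 14.2 CPM (SD, n = 3 each), and the log2 fold change of -0.54 had a standard error of 0.0974 (adjusted p = 0.0792, edgeR). That was the smallest adjusted p of the 40 genes other than Wdr81, and it fell under 0.05 without GIT1 fl/fl replicate 2 (0.0435) and with DESeq2 (0.00087). The model of Gabarapl1, at 8737 to 18256 counts, shares 28.32% of its exon length with 1700101I11Rik on the opposite strand, which held 965 to 2302 counts, and what reads of that model add to Gabarapl1 was not tested. Map1lc3b, the gene of LC3B, was at 93.7, 99.1 and 95.2 CPM in GIT1 CKO against 112.5, 141.4 and 122.4 CPM in the controls. The groups did not overlap (log2 fold change -0.39, standard error 0.11, adjusted p = 0.177, edgeR). Map1lc3a, the gene of LC3A and the richest in GC of the 41 (63.13%), overlapped and had -0.22, which was -0.03 with the GC trend removed.
Gabarap was the most abundant of the 41 genes per kilobase of exon. Its level was 500.6, 514.8 and 518.2 CPM in GIT1 CKO against 564.0, 376.5 and 565.7 CPM in the controls. GIT1 fl/fl replicate 2 was the lowest and the other controls were the highest, so the log2 fold change of 0.03 became -0.12 without that library. Gabarapl2 had 0.02, which was below 0 with upper-quartile scaling, with the GC trend removed and without replicate 3 of either group. Of the summed level of these 5 genes per kilobase of exon, Gabarap made up 73.7 ± 0.05% in GIT1 CKO against 67.0 ± 7.31% in control BMDMs, and Gabarapl1 made up 14.8 ± 0.53% and 20.3 ± 4.1% (SD, n = 3 each). The shares of Gabarapl1 were 15.2, 14.9 and 14.2% in GIT1 CKO and 17.1, 24.9 and 18.8% in GIT1 fl/fl libraries, so the groups lay apart, and GIT1 fl/fl replicate 2 again differed most from the rest. Map1lc3a, Map1lc3b and Gabarapl2 each made up between 2.97% and 5.57% on average in either group. Per kilobase of exon the level of Map1lc3b was above that of Gabarapl2 in 6 of 6 libraries, at 12.8 ± 0.372 against 12.0 ± 0.526 CPM in GIT1 CKO and 16.7 ± 1.95 against 11.8 ± 1.30 CPM in control BMDMs (SD, n = 3 each). Their shares were nearest in GIT1 CKO replicate 3, at 3.32% and 3.31%.

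**Figure D3:**
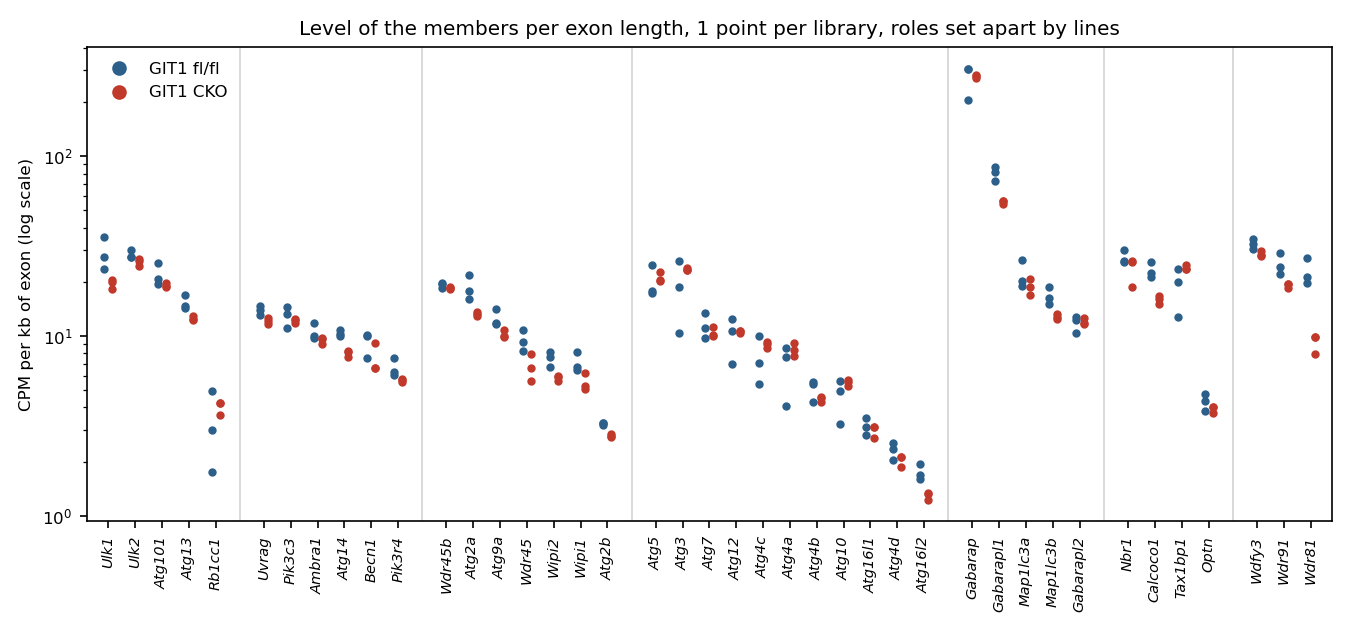
Level of each gene in CPM per kilobase of exon (y axis, log scale), with 1 point per library, GIT1 fl/fl in blue and GIT1 CKO in red, and vertical lines between the roles. Gabarap lies highest at 277.2 (GIT1 CKO) and 272.3 (GIT1 fl/fl) on average and Atg16l2 lowest, and the red points of a gene are closer together than the blue ones in most genes.

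Receptors bring the cargo to ATG8 proteins. Calcoco1, a receptor for endoplasmic reticulum described in human cells, was at 91.9, 86.6 and 95.4 CPM in GIT1 CKO against 122.0, 147.5 and 128.7 CPM in the controls. The groups lay clearly apart, at 91.3 ± 4.46 and 132.7 ± 13.2 CPM on average (SD, n = 3 each). For Calcoco1 the log2 fold change was -0.54 (standard error 0.106, adjusted p = 0.093, edgeR; adjusted p = 0.00263, DESeq2), and its adjusted p was 0.0452 without GIT1 fl/fl replicate 2 and 0.0299 with the GC trend removed. Tax1bp1, a ubiquitin receptor that also dampens inflammatory signalling, was the 1 gene with every GIT1 CKO library above every control, but by a narrow margin. Tax1bp1 was at 235.6, 235.0 and 246.5 CPM in GIT1 CKO against 234.1, 126.9 and 198.4 CPM in the controls. Its log2 fold change of 0.36 (its standard error was 0.215, adjusted p = 0.413, edgeR) was -0.17 with the GC trend removed. Nbr1, which binds ubiquitin and clusters cargo, was at 179.1, 177.8 and 128.6 CPM in GIT1 CKO against 207.2, 178.8 and 176.1 CPM in the controls. GIT1 CKO replicate 3 was the low library here, and the groups overlapped (log2 fold change -0.21, adjusted p = 0.486, edgeR). Optn, a receptor for mitochondria and bacteria, overlapped at 14.1 to 15.2 and 14.4 to 17.9 CPM (log2 fold change -0.14, adjusted p = 0.558). In these 4 receptors edgeR called 0 (at an unadjusted p under 0.05, 1 was lower and 0 higher, and DESeq2 called 1).

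The sign of the difference went with GC content. The GC content of the longest transcript ran from 39.12% to 63.13% over the 41 genes (median 50.6%), and its Pearson's r with the log2 fold change was -0.766 (Spearman's rho -0.746, n = 41 genes, which share all 6 libraries). GC content also went with the log2 ratio of GIT1 fl/fl replicate 2 to the other controls, with an r of 0.809 (rho 0.876, n = 41). That library was the highest of all 6 in 23 of the 31 genes below 0 and the lowest of all 6 in 9 of the 10 genes above 0, and the median GC content was 51.8% in the former and 43.1% in the latter. With each library's GC trend removed, r with the log2 fold change was -0.248 (rho -0.151), and 38 of the 41 genes were below 0, beside 51.6% of all genes tested. Without GIT1 fl/fl replicate 2 it was -0.574 (rho -0.572), and 31 genes were below 0, beside 46.2% of all genes tested. Removal of the trend moved 7 of the 10 genes above 0 to the other side and 0 of the 31 below it, and Wdr81 (GC content 59.15%) kept -1.13 in both settings. What set this library apart was not tested.
GIT1 CKO libraries were also closer to each other than the controls. The median coefficient of variation over the 41 genes was 3.95% in GIT1 CKO against 12.5% in control BMDMs, and it was larger in the controls for 38 of the 41. For the 10023 genes averaging at least 5 CPM the medians were 5.08% and 15.4%, so the same gap was present across the transcriptome.

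**Figure D4:**
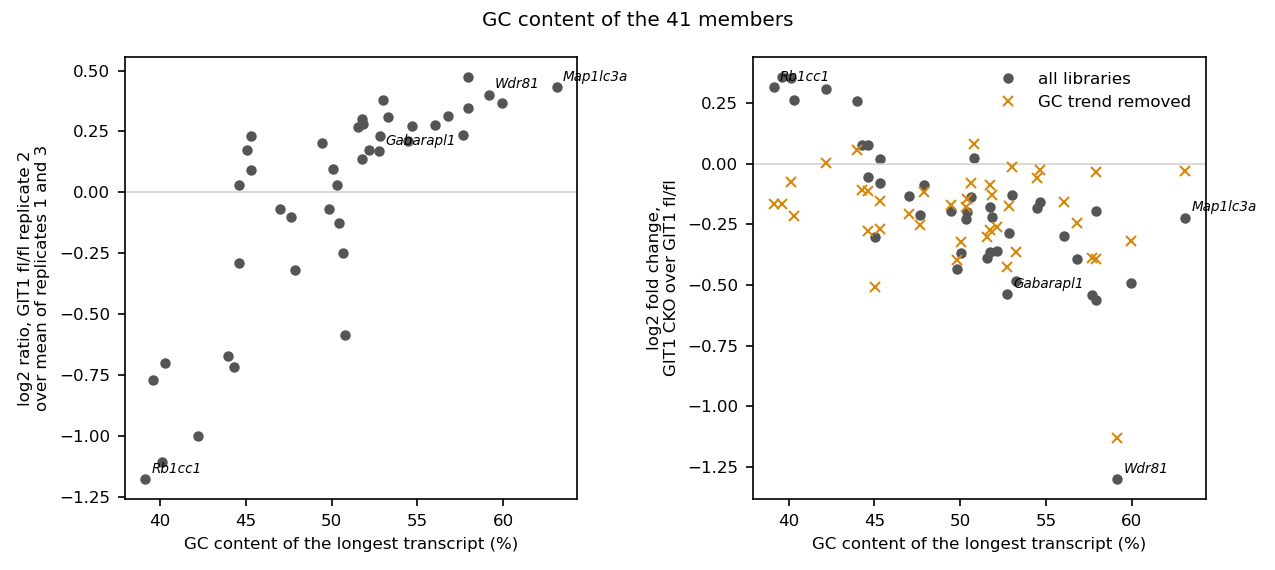
GC content of the longest transcript (x axes, %) of the 41 genes against the log2 ratio of GIT1 fl/fl replicate 2 to the mean of replicates 1 and 3 (left) and against the log2 fold change (right), where dots use all libraries and crosses have each library's GC trend removed. The left panel rises from Rb1cc1 to Map1lc3a (r 0.809), the dots of the right panel fall (r -0.766) and the crosses follow GC content less closely (r -0.248).

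Beyond these 41 genes, lists of further genes of the pathway held 119 other genes tested, of which edgeR called 1, Vps39 (at an unadjusted p under 0.05, 20 were lower and 3 higher, beside 8.45% and 9.06% of all genes tested). Their median log2 fold change was -0.09, and 31 of them had all GIT1 CKO libraries below all controls and 10 above, beside 15.1% and 13.6% of all genes tested. Vps39 encodes a subunit of the HOPS complex that tethers autophagosomes and late endosomes to lysosomes. Vps39 was at 110.7, 122.4 and 110.3 CPM in GIT1 CKO against 170.0, 173.6 and 190.0 CPM in the controls. The groups lay apart by more than the range of either, and its log2 fold change was -0.64 (standard error of 0.0945, adjusted p = 0.0473, edgeR). Vps39 was not called with upper-quartile scaling, total-count scaling or no filter on low counts, nor without any 1 of the GIT1 CKO replicates or replicate 3 of the controls. In the list of tethering and fusion factors it belongs to (17 tested), 16 did not pass, among them Tecpr1 (log2 fold change -0.45, adjusted p = 0.157) and Plekhm1 (-0.51, adjusted p = 0.158), which act where autophagosomes meet lysosomes, and the median was -0.15.
Of 15 further receptors 0 were called (1 lower at an unadjusted p under 0.05, and 0 with DESeq2 and limma-voom), with a median of 0.02. Sqstm1, the gene of the receptor p62, was at 350.8, 351.6 and 379.1 CPM in GIT1 CKO against 391.9, 732.0 and 610.4 CPM in the controls. Controls differed from each other more than the nearest of them differed from GIT1 CKO (log2 fold change -0.68, standard error 0.219, adjusted p = 0.206, edgeR). The mitophagy receptor gene Bnip3l had 0.19 (adjusted p = 0.33) and Fkbp8 had -0.18 (adjusted p = 0.428). With the GC trend removed Bnip3l had -0.25 and Fkbp8 had 0.0.
The endosomal genes around WDR81 and WDR91 (25 tested) were listed for a link to PI3P or to the exchange of RAB5 for RAB7. They had a median of 0.01 and 0 called (at an unadjusted p under 0.05, 4 were lower and 0 higher, and 0 with DESeq2 and limma-voom). Those with the smallest p were Vac14 (-0.39, adjusted p = 0.185), Mon1b (-0.34, adjusted p = 0.192) and Mtmr3 (-0.27, adjusted p = 0.201). Of the 8 BEACH domain genes tested other than Wdr81, Wdfy3 among them, edgeR called 0, as did DESeq2, and 0 had an unadjusted p under 0.05. Without Wdfy3 their median was 0.13. Nbeal1 had 0.82 (adjusted p = 0.322), Nbeal2 -0.29 (adjusted p = 0.369) and Lyst, the lysosome trafficking gene of the beige mouse, 0.28 (adjusted p = 0.38). With the GC trend removed they had 0.23, -0.11 and 0.16 in that order.
The kinase complex mTORC1 restrains ULK1 when nutrients are present. Among 32 genes of mTORC1, the Rag GTPases, GATOR and other regulators, which include inhibitors of mTORC1 such as Tsc1, the median was -0.19. EdgeR called 0 of them (at an unadjusted p under 0.05, 6 were lower and 1 higher, 3 lower with DESeq2 and 0 with limma-voom). Fnip2 had -0.36 (adjusted p = 0.117), Tsc1 -0.37 (adjusted p = 0.158) and Wdr24 -0.35 (adjusted p = 0.169), all with the groups apart. Of 7 transcription factors of autophagy genes 0 were called (at an unadjusted p under 0.05, 2 were lower and 0 higher, 1 lower with DESeq2 and 0 with limma-voom), with a median of -0.25. Foxo4 had -0.64 (adjusted p = 0.103), Foxo3 -0.32 (adjusted p = 0.171) and Foxo1 -0.25 (adjusted p = 0.308), and the groups lay apart for each of these. Of 19 further biogenesis factors 0 were called (at an unadjusted p under 0.05, 2 were lower and 2 higher, 1 lower and 1 higher with DESeq2 and 0 with limma-voom), with a median of -0.04. Bcl2, which binds Beclin 1, had 0.92 (adjusted p = 0.107) at 2.78 to 3.18 CPM in GIT1 CKO against 1.31 to 1.81 CPM in the controls, Zfyve1 had -0.39 (adjusted p = 0.154) and Dapk1 -0.22 (adjusted p = 0.265).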

How the data were processed

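RNA of LPS-treated BMDMs was sequenced on an Illumina instrument by the authors. The submitters' processing notes name fastp 0.17.1, HISAT2 2.1.0, DESeq2 1.18.1 and R 3.4.3. The sources used here do not say how, on which genome build or whether by strand the reads were counted. The deposited table held whole-number counts per gene and library, which were the input of every test. Further columns deposited by the authors, a size-factor normalized signal for every library and their own log2 fold change, adjusted p-value and p-value, were not used. Columns labelled CWT were taken as GIT1 fl/fl, the only control group.

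The groups were compared with edgeR 4.0.16 under R 4.3.3 (TMM scaling, filterByExpr with a minimum count of 10, robust quasi-likelihood F-test, Benjamini-Hochberg adjustment over the 16287 genes tested of 25239 with any count). The common biological coefficient of variation was 0.277. Standard errors are the log2 fold change over the root of F. Gene IDs were matched to GENCODE M21 (GRCm38) for exon lengths, GC content and coordinates. The exon length of a gene is the union of the exons of all its transcripts. Levels and ranks per kilobase of exon therefore depend on the transcripts annotated, whether or not these cells express them. Of the IDs, 99.72% matched, all 41 genes described among them. Promoters were credited to RefSeq. Alternatives were DESeq2 1.42.0, limma-voom 3.58.1, other scalings and filters, thinning to the smallest library, the replicate number as a block, removal of the GC trend (lowess, span 0.3), no genes of chromosomes X and Y, and each library left out. The code was tested on simulated data. The genes and lists were chosen with earlier results of these data known. All genes of the described set are named. Of the other lists, called genes are named, or the 3 with the smallest p. P-values set the difference between the groups against the spread between these samples, which is estimated with the help of all genes tested.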

Additional observations from a re-analysis of the deposited data

How the results depend on the processing

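Over 17 alternative settings, the 40 genes other than Wdr81 gave 678 log2 fold changes, of which 646 kept their direction and their side of an adjusted p of 0.05, 18 passed it in addition and 14, from 10 genes, changed sign. Wdr81 ran from -1.13 to -1.40. Counted with Wdr81, between 31 and 38 of the 41 genes were below 0. Without genes of chromosomes X and Y, which drops Atg4a and Wdr45, 30 were below 0. The share of all genes tested was 49.1% with edgeR as described above, 51.6% with the GC trend removed and 46.2% without GIT1 fl/fl replicate 2. GIT1 CKO lay wholly below the controls in 21 to 24 genes as libraries were left out, beside 17.7 to 25.4% of all genes. GIT1 CKO lay wholly above them in 7 without GIT1 fl/fl replicate 1, beside 27.5% of all genes, and in 1 without any other library. These counts were added after seeing the data. With no filter on low counts the median of all genes was 0.102. The cause of the changes below was not tested. Of all genes, DESeq2 called 1108, GC trend removal 807 and the replicate block 1 in place of 123, and leaving out 1 library gave 1 to 1159. Of the 41 genes, counted with Wdr81, which was chosen for its fall, these settings called 7, 6 and 0 in place of 1, and leaving out 1 library gave 0 to 6, namely 0 without any 1 of the GIT1 CKO replicates or GIT1 fl/fl replicate 3, 6 without GIT1 fl/fl replicate 1 and 3 without replicate 2. Under DESeq2 these were Atg14, Atg16l2, Atg2a, Calcoco1, Gabarapl1, Ulk1 and Wdr81, and with the GC trend removed Atg2a, Calcoco1, Gabarapl1, Ulk1, Wdr81 and Wdr91. At the study's threshold 2 passed with upper-quartile scaling and 1 to 7 with a library left out. The median of the 41 was -0.222 to -0.131 with a library left out. In the other lists 9 passed with DESeq2, 7 with the GC trend removed, 0 with upper-quartile scaling, total-count scaling, no filter or the replicate block, and 0 to 13 with a library left out. The log2 fold change changed sign for Gabarapl2 with upper-quartile scaling (-0.00493), GC trend removal (-0.152) and without GIT1 CKO replicate 3 (-0.0174) or replicate 3 of GIT1 fl/fl (-0.0398). After removal of the GC trend it did so for Rb1cc1 (-0.164), Atg3 (-0.0748), Atg5 (-0.11), Atg10 (-0.214), Atg12 (-0.107) and Tax1bp1 (-0.167), and with GIT1 fl/fl replicate 2 left out for Atg7 (0.0336), Atg12 (-0.0996), Atg16l1 (0.0277) and Gabarap (-0.119). With any library left out, Atg7 ran from -0.206 to 0.0336, Atg12 from -0.0996 to 0.26, Atg16l1 from -0.155 to 0.0277, Gabarap from -0.119 to 0.146 and Gabarapl2 from -0.0398 to 0.0809. The sources used here do not say whether replicate numbers pair the samples. Deviations of same-numbered samples from their group means had an r of -0.0481, 0.0399 and 0.00746. These values cannot settle it, since the deviations within a group of 3 depend on each other. The deepest library held 157485640 and the shallowest 61895190 counts, and thinning to the latter left 0 of the 40 other genes called.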

Other observations

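Genes next to Wdr81 on chromosome 11 were read after the values of Wdr81 were seen. Within 1 Mb on either side, 43 other genes were tested, and edgeR called 0 of them (at an unadjusted p under 0.05, 9 were lower and 0 higher, beside 8.45% and 9.06% of all genes tested). Their median log2 fold change was -0.07, with a range from -1.04 to 0.44. The lowest was Crk, an adaptor of tyrosine kinase signalling (adjusted p = 0.187). Rilp, which encodes an effector of RAB7 on lysosomes, had -0.35 (adjusted p = 0.357). Of the 41 autophagy and WDR81 group genes, 7 lie on chromosome 11, namely Becn1, Gabarap, Nbr1, Ulk2, Wdr45b, Wdr81 and Wipi1.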
